A study of Mus musculus with 18 samples.

Results

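Oas2, Oas3, Oasl1 and Oasl2, 4 genes of the OAS family of antiviral enzymes, were followed across 9 immune cell populations sorted from mice given interferon gamma (IFNg). The 4 were taken by symbol, each from the single probe set that carries that symbol alone, and stand among 19752 genes measured in the same way. Expression was read on 18 Affymetrix Mouse Gene 1.0 ST arrays, whose probe sets span whole transcripts, with 2 arrays per population. All arrays were from male C57BL/6 mice 6 weeks old, taken 2 h after an injection of 10000 U of IFNg under the skin, so every group shares the treatment. Spleen gave dendritic cells (DC; CD11c+ MHCII+ Flt3+), granulocytes (GN; Ly6G+), natural killer cells (NK; NK1.1+ TCRB-), a T cell population bearing NK1.1 (NKT; NK1.1+ TCRB+), T4 (CD4+ TCRB+) and T8 (CD8+ TCRB+) cells, T cells with the gamma delta receptor (Tgd; TCRgd+ TCRB-) and Treg (CD4+ TCRB+ CD25+), and the peritoneal cavity gave macrophages (MF; F4/80+ ICAM2+). For MF, tissue and cell type therefore cannot be told apart. No untreated animals were analysed here, so the values are levels in treated animals and not responses to IFNg.

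OAS enzymes are synthetases that bind double-stranded RNA, a product of viral replication, and join ATP into short 2-5A chains that act as a second messenger and lead to the breakdown of viral and cellular RNA. Oas2 and Oas3 make such chains. Oasl2 carries ubiquitin-like repeats beside its OAS domain and keeps synthetase activity, whereas Oasl1 has lost it and is known to hold back translation of the mRNA of Irf7, a transcription factor of interferon production. Interferons induce the family. Stat2, Irf9 and other interferon regulatory factors act at the interferon-stimulated response element.

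The bases upstream of the start were available for 3 of the 4 genes. They are shown because these elements are where interferon factors bind. Whether the sequences bear on the levels below was not tested. The sequences are RefSeq's on build GRCm38.p6, at chr5:120777685-120777909 on the minus strand for Oas3, chr5:114922990-114923142 on the plus strand for Oasl1 and chr5:114896684-114896925 on the plus strand for Oasl2. Each ends at the last base before the outermost annotated start. Capitals mark the motif matches.
Oas3: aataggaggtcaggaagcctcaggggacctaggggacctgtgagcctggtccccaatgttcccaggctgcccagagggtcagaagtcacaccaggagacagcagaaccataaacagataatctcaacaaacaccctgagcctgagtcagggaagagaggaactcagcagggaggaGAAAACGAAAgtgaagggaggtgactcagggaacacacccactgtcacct
Oasl1: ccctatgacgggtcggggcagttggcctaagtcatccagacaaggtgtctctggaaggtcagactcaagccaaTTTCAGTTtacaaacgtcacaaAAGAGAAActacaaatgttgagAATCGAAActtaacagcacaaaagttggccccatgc
Oasl2: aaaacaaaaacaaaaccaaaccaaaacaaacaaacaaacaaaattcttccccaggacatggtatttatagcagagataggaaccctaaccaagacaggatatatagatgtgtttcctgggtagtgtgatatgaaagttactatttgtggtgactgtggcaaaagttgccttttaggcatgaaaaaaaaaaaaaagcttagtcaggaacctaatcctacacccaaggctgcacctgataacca

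Both strands were searched for 3 motifs: the core of the interferon-stimulated response element (GAAA, any 2 bases, then GAAA again), AANNGAAA, a shorter interferon regulatory factor site contained in the first, and TTCNNNGAA, the gamma-activated site. Oas3 held 1 match to the first, GAAAACGAAA, from 50 to 41 bases before the start, which also contains its match to the second. Among 32851 promoter windows cut to the same length, 2.68% held the first motif and 19.6% the second. These windows run from 250 bases before to 50 after a start, and the cut kept their far upstream end. All shares given here thus come from stretches that stop short of that start, and compare length but not position. Oasl1 held no match to the first (1.94% of windows of its length did) and 3 to the second (14.5%), at 80 to 73, 58 to 51 and 36 to 29 bases before the start. Oasl2 held neither, against 2.88% and 20.8% of windows. No match to TTCNNNGAA lay in any of the 3, against 6.38%, 4.49% and 6.83% of windows. A match describes the letters only, and its absence says only that they are not in these stretches.

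All genes of the sort gates that had a single-symbol probe set were bright in the population gated on them, such as Flt3 in DC at 11.61 and Klrb1c, which encodes NK1.1, in NK at 12.57 and in NKT at 12.11, whereas the gamma delta chain genes Trdc and Tcrg-C1 were not measured in this way. Median intensities were alike on all arrays, from 138.5 to 151.0, and the 2 arrays of each population correlated with r from 0.9901 to 0.996. The DC arrays stood apart from each other in markers of other cells. On DC replicate 2 all 10 granulocyte markers were at least 2-fold above replicate 1, with a median gap of 2.00, and the median level of the list was 8.86 on replicate 1 and 10.68 on replicate 2, against 12.84 and 13 in GN and 5.61 to 6.68 elsewhere. Monocyte markers (4 of 5) and red pulp macrophage markers (7 of 10) were at least 2-fold higher on it too. Levels below are log2 intensities, given in the order of the replicate numbers, and means carry the SD over the 2 arrays. In sorted bulk samples, fewer cells of a type that expresses a gene and less RNA per cell cannot be told apart. Whether both arrays of a population hold RNA of different mice is not in the labels. The p-values then speak only for the spread seen here, possibly a technical one, and precision is limited by the number of arrays.

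Oas2 was highest in the myeloid cells and far lower in NK. It stood at 11.91 and 11.94 on the DC arrays, 12.52 and 12.48 on the GN arrays and 11.51 and 11.50 on the MF arrays. In T cells it read 10.66 and 10.26 in T4, 9.95 and 9.36 in T8, 9.05 and 9.06 in Tgd, 9.48 and 9.39 in Treg and 8.85 and 9.06 in NKT, and in NK 6.81 and 7.14. The 6 myeloid arrays all lay above the 12 lymphoid ones, and both NK arrays lay below every other array. The share of all genes with such a myeloid split was not counted. From GN (12.50 ± 0.03) to NK (6.97 ± 0.24) the range of means was 5.53, or 46.2-fold. In the order of its levels, 2 steps passed between neighbours: MF above T4 by 1.04 ± 0.17 (SE; limma adjusted p = 5.42e-05) and NKT above NK by 1.99 ± 0.17 (adjusted p = 9.52e-08). A step passes if its adjusted p is under 0.05 and its size 2-fold or more, which is 1 on the log2 scale. GN, DC and MF followed each other within 0.57 and 0.43, and T8, Treg, Tgd and NKT within 0.38 at each step, with overlapping arrays between T8 and Treg and between Tgd and NKT.

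Oasl2 followed the same outline. It read 12.15 and 12.37 in DC, 13.21 and 13.23 in GN and 11.62 and 11.24 in MF. Among lymphoid cells it read 10.76 and 10.32 in T4, 10.03 and 10.26 in Tgd, 9.92 and 9.88 in Treg and 9.95 and 9.82 in T8, then 8.36 and 8.70 in NKT and 7.70 and 7.79 in NK. Again no myeloid array overlapped a lymphoid one, a split not counted over all genes, and both NK arrays were the lowest of all. The range from GN (13.22 ± 0.01) to NK (7.74 ± 0.06) was 5.48, or 44.6-fold. Its one step past the threshold lay between T8 and NKT, at 1.35 ± 0.15 (adjusted p = 6.3e-06), so that both NK1.1+ populations stood below the other lymphocytes. GN above DC by 0.96 and DC above MF by 0.83 passed on the adjusted p (4.82e-05 and 0.000329, limma) but not on size.

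Oas3 was set apart by GN alone at the top and by NK at the bottom. Its GN arrays read 12.47 and 12.44, against 10.19 and 10.85 in DC and 9.79 and 9.47 in MF. Lymphoid arrays read 9.88 and 10.04 in Tgd, 10.07 and 9.64 in T8, 9.37 and 9.78 in NKT, 9.52 and 9.21 in T4, 9.27 and 9.01 in Treg and 8.44 and 8.13 in NK. MF lay inside the lymphoid range here, and the DC arrays lay above all lymphoid ones, which was not counted over all genes. GN exceeded DC, next in order, by 1.93 ± 0.21 (limma adjusted p = 4.58e-07). From Tgd down to Treg no neighbouring populations differed past the threshold, each step being 0.23 or less, and Treg and NK, at 0.86 ± 0.21 apart (adjusted p = 0.00628), missed it on size. The full range was 4.17, or 18-fold.

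Oasl1, the member without synthetase activity, had its lowest level in MF and not in NK. The MF arrays read 7.46 and 7.60, the NK arrays 7.92 and 8.13, the GN arrays 11.49 and 11.62 and the DC arrays 9.51 and 10.10. Tgd read 9.78 and 9.86 and NKT 9.25 and 9.58, above T4 (8.81 and 8.45), T8 (8.83 and 8.45) and Treg (8.72 and 8.46). Both MF arrays lay below all others, and the Tgd arrays lay among those of DC. GN exceeded Tgd, next in order, by 1.74 ± 0.19 (limma adjusted p = 3.61e-07), the one step past the threshold, and the range from GN to MF was 4.03, or 16.3-fold. NK lay 0.50 ± 0.19 above MF (adjusted p = 0.0441), under 2-fold.

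**Figure D1:**
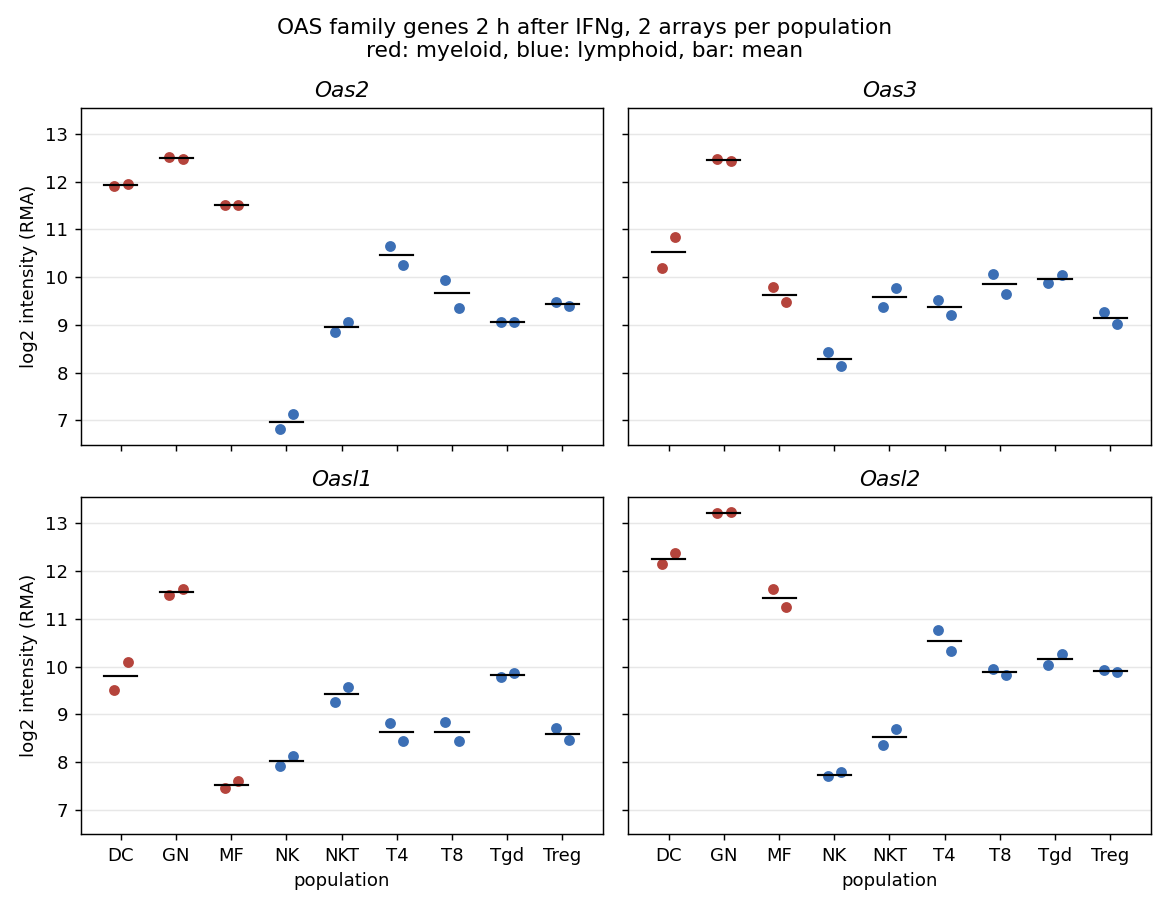
Log2 intensity (y axis) of Oas2, Oas3, Oasl1 and Oasl2 in the 9 populations (x axis), with 1 point per array, red for myeloid and blue for lymphoid cells, and a bar at the mean of the 2 arrays. GN is the highest population in each panel, at 12.50, 12.45, 11.56 and 13.22, and NK the lowest in all but that of Oasl1, where MF stands at 7.53.

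All 4 genes differed over the 9 populations by limma's moderated F test (adjusted p = 1.04e-13 for Oas2, 6.4e-10 for Oas3, 8.3e-11 for Oasl1 and 4.51e-14 for Oasl2). Of all genes 39% did, so the count says little by itself. The median range of the 4 was 4.83, against 0.71 over all genes. GN was called higher than the mean of the other 8 populations for 4 of 4 genes, where 7.03% of all genes were called higher: Oas2 by 2.75 ± 0.12, Oas3 by 2.91 ± 0.16, Oasl1 by 2.75 ± 0.14 and Oasl2 by 3.17 ± 0.12 (limma adjusted p = 2.54e-12, 2.34e-11, 1.19e-11 and 1.67e-13). Both GN arrays exceeded the other 16 arrays for all 4, as for 20.2% of all genes. Their median difference of 2.83 compares with 0.13 over all genes.

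NK was called lower than the mean of the other 8 for 4 of 4 genes, where 2.62% of all genes were: Oas2 by -3.47 ± 0.12, Oasl2 by -3.0 ± 0.12, Oas3 by -1.78 ± 0.16 and Oasl1 by -1.22 ± 0.14 (limma adjusted p = 6.66e-13, 1.82e-12, 8.4e-08 and 2.35e-06). Both NK arrays were the lowest of all 18 for 3 of the 4, as for 1.66% of all genes. Oasl1 was the exception, because of MF. Among the other lymphoid populations, those that passed on the low side were NKT for Oas2 at -1.23 ± 0.12 and for Oasl2 at -2.11 ± 0.12 (2 of 4, background 2.28%), and Tgd for Oas2 at -1.12 ± 0.12 (1 of 4, background 1.29%), with adjusted p = 7.29e-07, 3.31e-10 and 3.68e-06. No member passed in T4, T8 or Treg against the other 8, where 3.7%, 4.43% and 3.73% of all genes did, and the differences ran from -0.82 to 0.46.

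MF split the family. Against the other 8 populations Oas2 was higher by 1.63 ± 0.12 and Oasl2 by 1.15 ± 0.12, Oas3 did not pass at -0.26 ± 0.16, and Oasl1 was lower by -1.78 ± 0.14 (limma adjusted p = 4.51e-09, 1.92e-07, 0.178 and 6.86e-09). Thus 2 of 4 were called higher and 1 lower, where 7.56% and 4.19% of all genes were. Both MF arrays were the lowest of all for Oasl1, as for 9.19% of genes. Without MF replicate 2, Oasl2 stood at 0.96, under 2-fold (adjusted p = 7.4e-05).

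DC split the family in another way. Oas2 was higher by 2.11 ± 0.12 and Oasl2 by 2.08 ± 0.12 (limma adjusted p = 2.06e-10 and 9.03e-11), while Oas3 at 0.74 ± 0.16 and Oasl1 at 0.78 ± 0.14 stayed under 2-fold (adjusted p = 0.00113 and 0.000254). So 2 of 4 were called higher, where 5.31% of all genes were. The 2 genes under the threshold were also those that differed between the DC arrays: on replicate 2, which held more signal of granulocyte markers, Oas3 was 0.67 higher and Oasl1 0.58 higher, against 0.03 for Oas2 and 0.21 for Oasl2. Without DC replicate 1 both reached 1.07 and all 4 genes passed, and without DC replicate 2 they stood at 0.40 and 0.49. Oas2 and Oasl2 stood at 2.10 and 1.98 without replicate 2. Replicate 1 also held signal of granulocyte markers, with a list median of 8.86 against 5.61 to 6.68 outside DC and GN. The part of other cells in all these values was not tested.

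**Figure D2:**
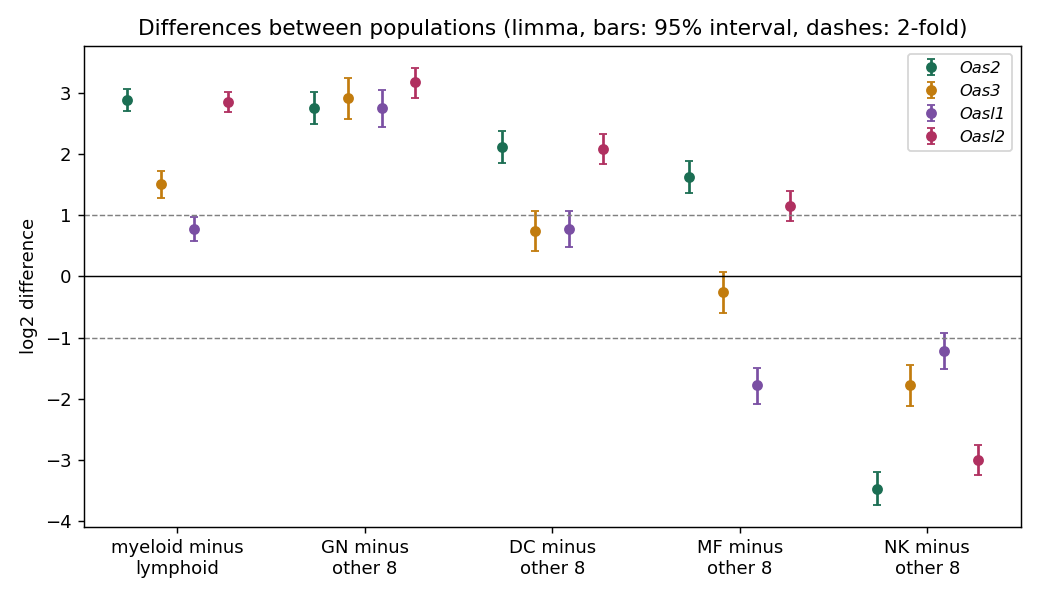
Log2 difference (y axis) of each gene in 5 comparisons (x axis), with limma's 95% interval as the bar and dashed lines at 2-fold. The 4 genes lie between 2.75 and 3.17 in GN and spread from 1.63 to -1.78 in MF.

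Myeloid cells as a group (the mean of DC, GN and MF against the mean of the 6 lymphoid populations) exceeded lymphoid cells in 3 of 4 genes, where 6.39% of all genes were called higher. Oas2 was higher by 2.89 ± 0.08, or 7.4-fold, Oasl2 by 2.85 ± 0.08 and Oas3 by 1.51 ± 0.10 (limma adjusted p = 3e-15, 1.36e-15 and 6.83e-10), and Oasl1 stood at 0.78 ± 0.09 (adjusted p = 1.09e-06), under 2-fold. With the spleen populations DC and GN alone, and so without the peritoneal cells, the differences were 3.12, 3.28 and 2.12, and 1.83 for Oasl1, which then passed (adjusted p = 8.42e-11; 6.4% of all genes called higher).

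The lymphoid populations differed among themselves in all 4 genes, where 9.95% of all genes did. Ranges of means were 3.49 for Oas2, 2.80 for Oasl2, 1.79 for Oasl1 and 1.68 for Oas3 (limma adjusted p = 5.67e-10, 6.26e-10, 6.74e-06 and 5.46e-05), always with NK lowest. The top differed: T4 was highest for Oas2 and Oasl2, and Tgd for Oas3 and Oasl1. T4 exceeded Tgd in Oas2 by 1.41 ± 0.17 (adjusted p = 1.71e-05) but lay below it in Oasl1, at -1.19 ± 0.19 (adjusted p = 0.000399). For this pair of populations 1.81% of all genes were called. T4 and T8 passed for none of the 4 (0.962% of all genes called), with differences of 0.80, -0.49, -0.01 and 0.65 for Oas2, Oas3, Oasl1 and Oasl2. At an adjusted p under 0.05 without the size, Oas2 and Oasl2 differed there (0.00814 and 0.0222). NKT exceeded NK by 1.99 in Oas2, 1.29 in Oas3 and 1.39 in Oasl1, and Oasl2, at 0.79 ± 0.15 (adjusted p = 0.00154), missed 2-fold. In this pair 3.68% of all genes were called.

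Over all 36 pairs of populations, 91 of 144 tests of the 4 genes passed, or 63.2%, against 10% of tests over all genes. Oas2 and Oasl2 passed in 26 pairs each, Oasl1 in 23 and Oas3 in 16. Among the 15 lymphoid pairs the count was 25 of 60, against 2.96% over all genes. GN passed against all 8 other populations for Oas3 and Oasl1, against 7 for Oasl2 and 6 for Oas2. Within the myeloid cells, GN exceeded MF by 4.03 in Oasl1, 2.82 in Oas3 and 1.80 in Oasl2, and Oas2, at a rounded 1.00, fell just short of 2-fold (20.7% of all genes called in this pair). DC exceeded MF in Oasl1 by 2.27 (10.9% called), the one member to pass there.

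The difference between members was tested on the ratio of 2 genes within each array, which shows unequal change and not which gene changed. All 6 ratios varied over the 9 populations by an F test on the spread of each ratio itself, but so did 99.9% to 100% of ratios of any gene to these members, because the members vary so widely. The sizes tell the ratios apart. Oasl1 over Oas2 ranged over 5.03 and Oasl2 over Oasl1 over 4.78 (limma fit without moderation, adjusted p = 2.8e-08 and 4.84e-07), Oas3 over Oas2 over 3.18 and Oasl2 over Oas3 over 2.84, whereas Oasl1 over Oas3 ranged over 1.96 and Oasl2 over Oas2 over 1.52 (adjusted p = 3.44e-05 and 0.000235). The ratio of Oasl1 to Oas2 lay 3.03 below its mean in MF and 2.00 above it in NK. Oasl2 over Oas2 stayed within 0.78 of its mean in every population, lowest in NKT and highest, at 0.74, in Tgd.

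MF lay furthest out in the ratio of Oasl1 to Oas2, but the split was not confined to MF. The ratio of Oasl1 to Oas2 in MF against the other 8 was -3.41 ± 0.12 (limma without moderation, adjusted p = 1.02e-07), where 89.6% of all genes differed from Oas2 past the threshold. The ratio of Oasl1 to Oas3 there was -1.52 ± 0.13 (adjusted p = 2.82e-05), where 13.3% of all genes differed from Oas3. For Oasl2 over Oas2 it was -0.48 ± 0.13 (adjusted p = 0.00477), under 2-fold. Between myeloid and lymphoid cells Oasl2 over Oas2 differed by -0.04 ± 0.09 (adjusted p = 0.639), and Oasl1 over Oas2 by -2.11 ± 0.08 (adjusted p = 1.87e-09; 97.7% of all genes called). With DC and GN alone as the myeloid cells, Oasl1 over Oas2 still differed by -1.3 ± 0.09 (same fit, adjusted p = 2.24e-07; 98.2% called). In NK against the other 8 this ratio was 2.25 ± 0.12 (adjusted p = 2.66e-08; 99.8% called). In GN against the rest the ratio of Oasl1 to Oas3 differed by -0.16 ± 0.13 (adjusted p = 0.238), where 97.6% of all genes differed from Oas3 past the threshold.

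**Figure D3:**
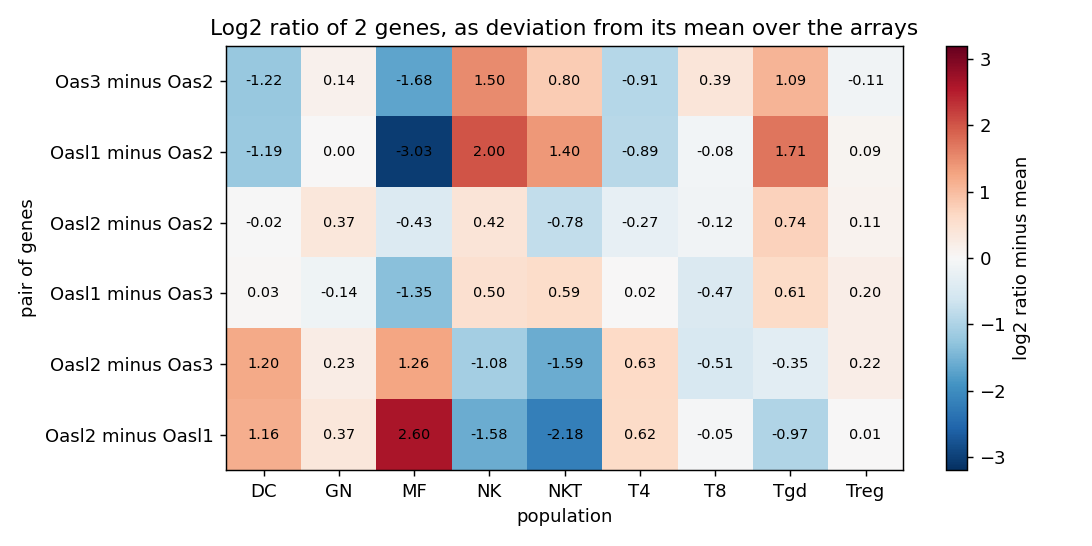
Log2 ratio of each pair of genes (y axis) in each population (x axis), as the deviation from its mean over the arrays, in colour and as a number. The ratio of Oasl1 to Oas2 is lowest in MF at -3.03, and that of Oasl2 to Oasl1 highest there at 2.60, while Oasl2 over Oas2 stays between -0.78 and 0.74.

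Across the 9 population means, Oas2 and Oasl2 had the most alike profiles (Pearson's r = 0.963, Spearman's rho = 0.933), followed by Oas3 and Oasl1 (0.861 and 0.783), and Oas2 and Oasl1 the least alike (0.458 and 0.300). Within the 6 lymphoid means r was 0.890, 0.778 and 0.296 for the same pairs, and rho was 0.771, 0.943 and 0.086, so that by rank Oas3 and Oasl1 were the more alike there. These are descriptions over few points, and both genes of a pair come from the same arrays. All 4 genes lie on chromosome 5, where RefSeq places Oas2 next to Oas3 and Oasl1 next to Oasl2 among protein-coding genes. The neighbours reached r = 0.790 and 0.555, below both pairs named first.

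The genes whose 9 means most resembled each member were chosen by r among those that differed over the populations. For Oas2 they were Gdap10 (r = 0.971), Parp12 (0.970), an interferon-induced ADP-ribosyltransferase, Milr1 (0.965), Nampt (0.962), an enzyme of NAD synthesis, and Foxred1 (0.962). For Oasl2 they were Gdap10 (0.984), Milr1 (0.980), Dck (0.976), a kinase of deoxynucleosides, Nampt (0.973) and Gbp5 (0.969), a guanylate-binding protein. Oas2 and Oasl2 thus shared 3 of 5. For Oas3 they were Fbxo10 (0.968), Cmpk2 (0.960), a mitochondrial nucleotide kinase induced by interferon, Gpcpd1 (0.960), Ifi35 (0.958) and Ogfr (0.958). For Oasl1 they were Tspyl1 (0.968), Rsad2 (0.959), the antiviral enzyme viperin, Ifit3b (0.954), Pde4b (0.950), a cyclic AMP phosphodiesterase, and Samd9l (0.948). Likeness by r is one of shape and not of size. Foxred1, Fbxo10, Ogfr and Tspyl1 ranged over only 1.17, 1.1, 1.03 and 1.21, against 4.03 to 5.53 for the members. The rest ranged over 1.56 (Ifi35) to 6.14 (Ifit3b).

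Other genes of the 2-5A pathway varied less. Of 11 listed, 9 had a single-symbol probe set, and 4 of the 9 differed over the populations, near the 39% of all genes. Oas1a, with r of 0.829 to Oas2, 0.844 to Oas3, 0.658 to Oasl1 and 0.865 to Oasl2 over the 9 means, read 10.65 and 10.52 in GN, 9.98 and 10.13 in DC, 9.51 and 9.44 in MF, 8.88 and 8.94 in Tgd and 7.73 and 7.46 in NK, a range of 2.99 (limma adjusted p = 1.93e-09). Its 6 myeloid arrays lay above all lymphoid ones, a split not counted over all genes. Oas1a was higher in GN by 2.05 ± 0.16 and lower in NK by -1.31 ± 0.16. NK was not alone at the low end. Oas1a read 8.09 and 7.43 in T8, 8.30 and 7.73 in T4 and 8.25 and 7.73 in Treg, so the NK arrays overlapped those of T8. Oas1b ranged over 1.73 and Oas1e over 1.25 (adjusted p = 0.00107 and 1.98e-06), the latter from dim signal with GN alone standing out at 6.39 and 6.15. Oas1c, Oas1d, Oas1f and Oas1h did not pass. The Oas1 genes are near copies of each other, so their probe sets may share signal and their separate values are uncertain. Abce1, an ATP-binding protein of ribosome recycling listed for its part in this pathway, ran the other way in GN, with 8.82 and 8.62 against 9.65 to 10.87 on all other arrays, lower by -1.87 ± 0.12 (adjusted p = 2.17e-10). Pde12, which breaks down 2-5A, did not pass over the 9 populations.

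**Figure D4:**
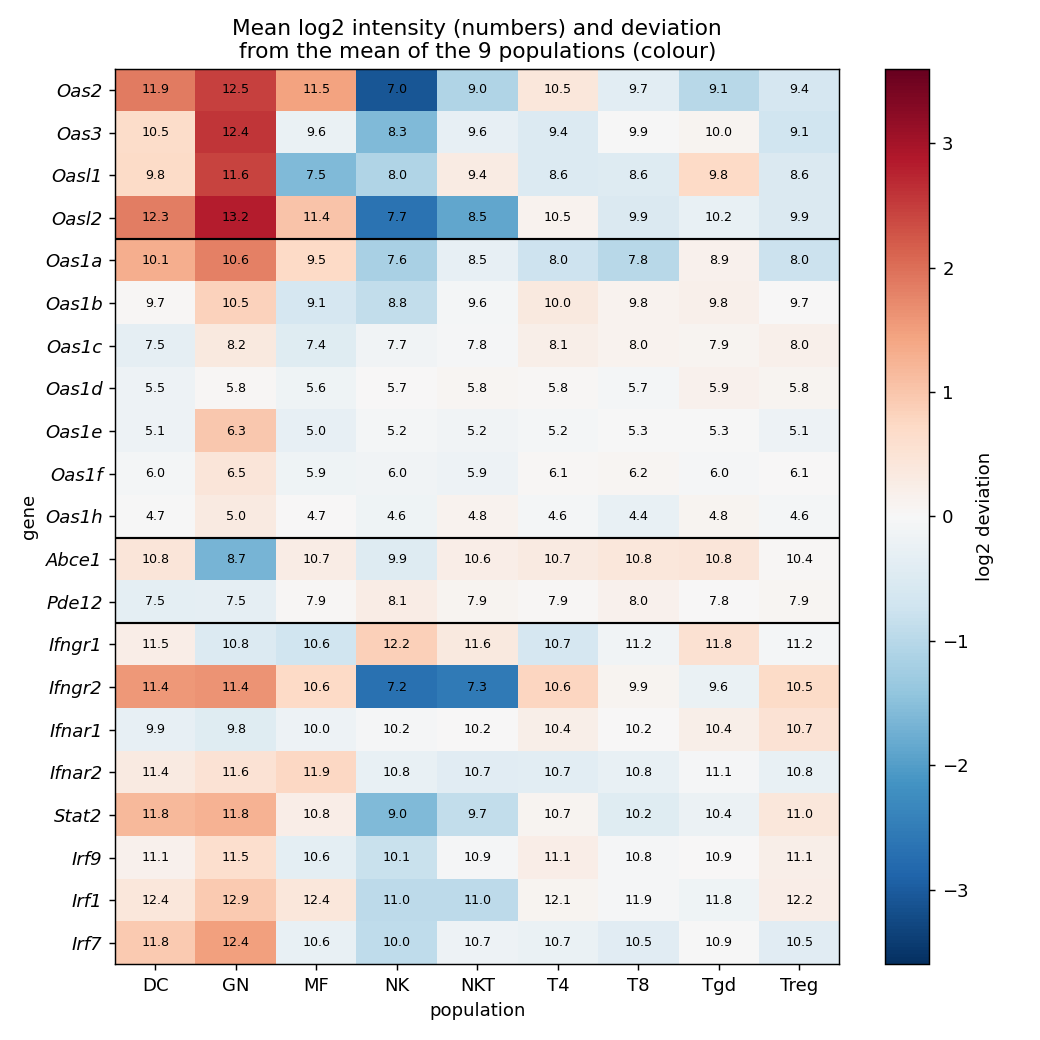
Mean log2 intensity (numbers) and its deviation from the mean of the 9 populations (colour) for the 4 genes, other 2-5A pathway genes and interferon receptor and signalling genes (y axis) by population (x axis). GN stands out in red for the 4 genes and Oas1a and in blue for Abce1, and NK in blue for Oas2, Oasl2, Ifngr2 and Stat2.

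Interferon receptors and signalling genes were measured for 11 of 12, of which 10 differed over the populations and 7 among lymphoid cells, where 39% and 9.95% of all genes did. Ifngr2, the signalling chain of the IFNg receptor, read 6.99 and 7.34 in NK and 7.36 and 7.23 in NKT, and between 9.57 and 11.49 on all other arrays. In NK it was lower by -3.01 ± 0.09, and Stat2 by -1.78 ± 0.09, Irf1 by -1.07 ± 0.08 and Irf7 by -1.05 ± 0.09 (limma adjusted p = 6.98e-14, 9.24e-11, 6.6e-09 and 6.41e-08), while the kinase Tyk2 was higher by 1.31 ± 0.10. That made 4 of 11 lower and 1 higher in NK, where 2.62% and 2.45% of all genes were. In GN, Ifngr2, Irf7, Stat2 and Irf1 were higher by 1.81 ± 0.09, 1.67 ± 0.09, 1.40 ± 0.09 and 1.05 ± 0.08, and Tyk2 was lower by -1.49 ± 0.10. In DC 4 of 11 were higher and none lower, where 5.31% and 2.41% of all genes were. Over the 9 means Ifngr2 had r = 0.905 with Oasl2, 0.863 with Oas2, 0.621 with Oas3 and 0.330 with Oasl1. Irf7 was closest to Oas3 (0.944), and Stat2 to Oasl2 (0.948) and Oas2 (0.919).

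Sensors and effectors of double-stranded RNA all differed over the populations (8 of 8) and 4 of 8 did among lymphoid cells, where 39% and 9.95% of all genes did. In GN, Ifih1 (the sensor MDA5), the kinase Eif2ak2 (PKR) and Dhx58 (LGP2) were higher by 1.86 ± 0.11, 1.72 ± 0.12 and 1.25 ± 0.11, and Mavs, an adaptor of RNA sensors, was lower by -1.63 ± 0.11, so that 3 of 8 were higher and 1 lower, where 7.03% and 11.7% of all genes were. In NK, Ifih1, Eif2ak2, Dhx58 and Zbp1 were lower, by -1.71 ± 0.11, -1.57 ± 0.12, -1.5 ± 0.11 and -1.42 ± 0.10, which made 4 of 8, where 2.62% of all genes were lower. DC had 3 of 8 higher and none lower, where 5.31% and 2.41% of all genes were. Tlr3, the endosomal sensor, departed from the members in GN: it read 6.85 and 6.67 there, against 10.39 and 10.68 in DC and 9.67 and 9.57 in MF.

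Other antiviral genes induced by interferon were measured for 13 of 15 (Isg15 and Ifi44 were not), of which 12 differed over the populations, where 39% of all genes did. In GN 9 were higher and 2 lower, where 7.03% and 11.7% of all genes were, and in NK 9 were lower and none higher, where 2.62% and 2.45% were. DC had 7 of 13 higher and none lower, where 5.31% and 2.41% of all genes were. Rsad2 was higher in GN by 3.94 ± 0.21, Cmpk2 by 2.85 ± 0.15 and Ifit3 by 2.45 ± 0.11 (limma adjusted p = 1.86e-11, 2.46e-11 and 2.87e-12). The low level of Oasl1 in MF had counterparts in this list: Ifit2, Ifit3, Ifit1 and Rsad2, 4 of 13, were lower there by -3.40 ± 0.11, -3.06 ± 0.11, -2.23 ± 0.14 and -1.52 ± 0.21, and none was higher, where 4.19% and 7.56% of all genes were. Mx1 departed from the 4 genes in GN. It read 6.34 and 5.92 in GN, below the other 16 arrays, and was lower there by -1.87 ± 0.18 (adjusted p = 7.63e-08), and its r with the 4 genes lay between -0.185 and -0.005.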

How the data were processed

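The deposited table holds a linear intensity for each probe set on each array, which the authors made with Affymetrix Power Tools and RMA per the submitters' processing notes. Versions, and whether all arrays were normalized together, are not given in the sources used here. RMA compresses differences of dim genes. Of 24922 probe sets, 21425 carried a single gene symbol and were used. The 1399 with several symbols and the 2098 without a listed gene were not named. Symbols were updated by Entrez number (21347 matched) against RefSeq (GRCm38.p6). The brightest probe set stood for each of 921 genes with several, which left 19752 genes.

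Values were taken to log2 and fitted in R 4.3.3 by limma 3.58.1 (functions lmFit, contrasts.fit and eBayes, the last with a mean-variance trend), with 1 mean per population, no covariate, 9 residual and 7.69 prior degrees of freedom. Tests were two-sided. The threshold was 0.05 on the p adjusted by Benjamini-Hochberg within a comparison, over all genes, together with a 2-fold difference. One-against-8 contrasts share arrays. Ratios of genes were tested without moderation, chosen after seeing the data, because the subtracted gene puts its error into every ratio. The calls on the 6 ratios over the populations were the same with moderation. The fits were tested on simulated data.

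The 4 genes and the lists were chosen with earlier results of these data known. Named genes are the 4, the lists' members and the 5 genes nearest each member by r, without clone names. Alternatives were another normalization, filter, probe set rule, variance model, replicate block and leaving out each array. Some items of the lists are not reported here.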

Additional observations from a re-analysis of the deposited data

How the results depend on the processing

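The results were recomputed under 29 other settings, not all of them for every result. Lymphoid samples alone, spleen alone and no moderation each applied to a single result. The settings of the probe set rule cannot change the values of the 4 genes, which have 1 probe set each. Of 237 counts of the 4 genes or of their ratios, 236 stayed within 1.5 times the main count, a bound that lets a small count lose a call. The other was DC against the rest, with 4 genes in place of 2 without DC replicate 1 (range over left-out arrays 2 to 4). Of 1472 values of single genes and counts of lists, 1454 stayed the same, 14 fell and 4 rose. For a gene this refers to its call, and for a list to the bound of 1.5 times the main count. No gene called in the main or the other fit changed direction, a check that list counts do not allow. The changes in single genes are in the report. The others were list counts, mostly that of the 2-5A pathway in NK, 1 in place of 2. The count of pairs passed lay between 88 (without DC replicate 2) and 93 over left-out arrays, and was 90 with quantile normalization and 92 with median centring, against 91. With a left-out array the lone one of its population is assumed to vary like the others.

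Deviations of same-numbered arrays correlated in part: r was above 0.1 in 11 of 36 pairs of populations, and among the 6 populations numbered 2 and 3 it ran from -0.16 to 0.47 with a median of 0.13. As not every pair exceeded 0.1, the numbers were not taken to pair the arrays. With the replicate number as a replicate block, 4 genes passed over the 9 populations, 4 among lymphoid ones, 3 in myeloid against lymphoid cells, 4 in GN, 2 in DC, 3 in MF and 4 in NK, as without it, and 91 pairs and 6 ratios passed. With 2 arrays per population and no untreated arrays analysed here, small steps between neighbouring populations and responses to IFNg are beyond these data.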

Other observations

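In T4, T8 and Treg the array numbered 2 read higher than the array numbered 3 for all 4 genes. The gaps for Oas2, Oas3, Oasl1 and Oasl2 were 0.40, 0.32, 0.36 and 0.43 in T4, 0.59, 0.43, 0.38 and 0.13 in T8, and 0.09, 0.26, 0.26 and 0.04 in Treg. Immediate early genes, which handling and activation can induce, had their list medians on the other side, at 8.93 and 9.52 in T4, 8.77 and 9.55 in T8, and 9.49 and 10.50 in Treg on the arrays numbered 2 and 3. Their part in the gaps was not tested. The other populations numbered 2 and 3 did not share this direction. In Tgd, with list medians of 9.48 and 9.71, the gaps of number 2 minus number 3 for Oas2, Oas3, Oasl1 and Oasl2 were -0.01, -0.16, -0.08 and -0.23. In MF, with 8.48 and 9.42, they were 0.01, 0.32, -0.14 and 0.38, and in NK, with 9.51 and 10.27, they were -0.33, 0.31, -0.21 and -0.08.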
